A study of Mus musculus with 18 samples.

Results

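The genes described here are 39 genes of mitosis and cell cycle control, taken by symbol from a table of raw RNA-seq counts with 24062 lines, and each of the 39 was found once. They were sorted into 11 roles: 2 marks of dividing cells, 3 D cyclins, 3 kinases of G1 and S phase, 3 inhibitors of cyclin-dependent kinases (CDKs), 3 A and B cyclins with Cdk1, 3 Cdc25 phosphatases, and 21 genes of the mitotic kinases, checkpoint, kinetochore, spindle and cytokinesis, called the spindle genes below. The 3 D cyclins, the 3 inhibitors, Ccna2, Ccnb1 and Ccnb2 form a second set of 9, called cyclins and inhibitors. The study compared C57BL/6 mice labelled heterozygous for Chd2, a chromatin remodelling gene (Chd2+/-, called HET here), with wild-type mice (WT). RNA came from the medial ganglionic eminence (MGE, the ventral forebrain zone that gives rise to interneurons) at E13.5, from the cortex at E13.5 and from the hippocampus at P45. Each of these 6 groups held 3 libraries, 18 in all, made from Trizol RNA by poly(A) selection with the NEBNext Ultra kit. The labels name no transgene, Cre driver or other treatment. They do not say whether the 3 libraries of a group came from separate animals or pools. The p-values measure the spread between these libraries, which may be partly or, outside cortex, wholly technical.

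Cells enter the division cycle when D cyclins bind Cdk4 or Cdk6 and release E2F transcription factors from the retinoblastoma protein, a step held back by CDK inhibitors. Genes of G2 and mitosis are switched on later, largely through promoters with CCAAT boxes and the cell cycle homology region (CHR), and Cdk1 with the B cyclins then drives mitosis, in which kinetochores, motors and a checkpoint sort the chromosomes. In the embryonic forebrain, progenitors along the ventricles divide and their daughters leave the cycle as neurons. The adult hippocampus holds few dividing cells, chiefly neural precursors and glial precursors.

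Library totals ran from 26841671 to 38802765 counts. CPM is counts per 1000000 counts of a library after scaling by the trimmed mean of M values (TMM), within a tissue unless stated otherwise, and n is 3 libraries a group. Chd2, the targeted gene, stood at 156 to 178 CPM in WT and 138 to 145 CPM in HET libraries of MGE, at 148 to 157 against 129 to 130.04 CPM in cortex, and at 67.3 to 73.9 against 61.5 to 64.2 CPM in hippocampus, with no overlap in any tissue. Tissue markers fitted the labels: Nkx2-1, which specifies the MGE, stood at 796 CPM or more in MGE and at 1.59 CPM or less elsewhere, Emx1 of the dorsal forebrain at 118 CPM or more in cortex, and Camk2a of mature neurons at 5110 CPM or more in hippocampus. All 3 WT libraries of MGE had high Xist (1769 to 1937 CPM) and all 3 HET libraries had Ddx3y of the Y chromosome (48.5 to 63.8 CPM), so genotype and sex cannot be told apart there. In cortex WT 1, HET 1 and HET 3 had Ddx3y, while WT 2, WT 3 and HET 2 had Xist, and all hippocampus libraries had Xist. Each cortex group thus held libraries from different animals or pools. Cortex HET 1 and HET 2 stood apart from cortex HET 3 in the members, so the genotype fold changes of cortex are given with and without HET 3. HET 3 was singled out by the values of these same members. Adjusted p-values without it therefore describe the remaining libraries and are not an independent test of the members.

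In WT tissue the 39 genes took their largest share of a library in MGE, less in cortex and very little in hippocampus. Their summed counts were 0.976 to 1.03% of a WT library in MGE, 0.694 to 0.734% in cortex and 0.0424 to 0.0432% in hippocampus. The ranges of the 3 tissues did not overlap. In bulk RNA, fewer cells of a type and less RNA per cell cannot be told apart, and in the hippocampus age and tissue cannot be told apart either.

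Levels between genes were compared as CPM per kb of exon, scaled over all 18 libraries. The length was that of all annotated exons of a gene joined, which may differ from that of the transcripts expressed. In both embryonic tissues Cdk4, the kinase partner of the D cyclins, was the most abundant member, at 469 CPM per kb in WT MGE and 479 in WT cortex. Top2a, the topoisomerase that untangles replicated DNA, followed in MGE at 257, and Ccnd2 in cortex at 139. At the low end, Cdk6, the other kinase of the D cyclins, stood at 2.39 in MGE and 0.769 in cortex, and the inhibitor Cdkn1a at 2.38 and 3.85. In the hippocampus the order was another one: Ccnd1 led at 22.4, beside Cdk4 at 22.2, Ccnd2 at 16.3, Ccnd3 at 11.5, Cdkn1b at 9.77, Anln at 8.92, Cdc25b at 7.73 and Cdkn1a at 2.60 CPM per kb. The remaining 31 members were at or under that of Cenpa, the centromeric histone, at 1.77 CPM per kb. Neighbours in these orders often did not differ beyond their spread: the ranges of 27 of 38 neighbouring pairs overlapped in WT MGE, 29 in WT cortex and 33 in WT hippocampus.

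**Figure D1:**
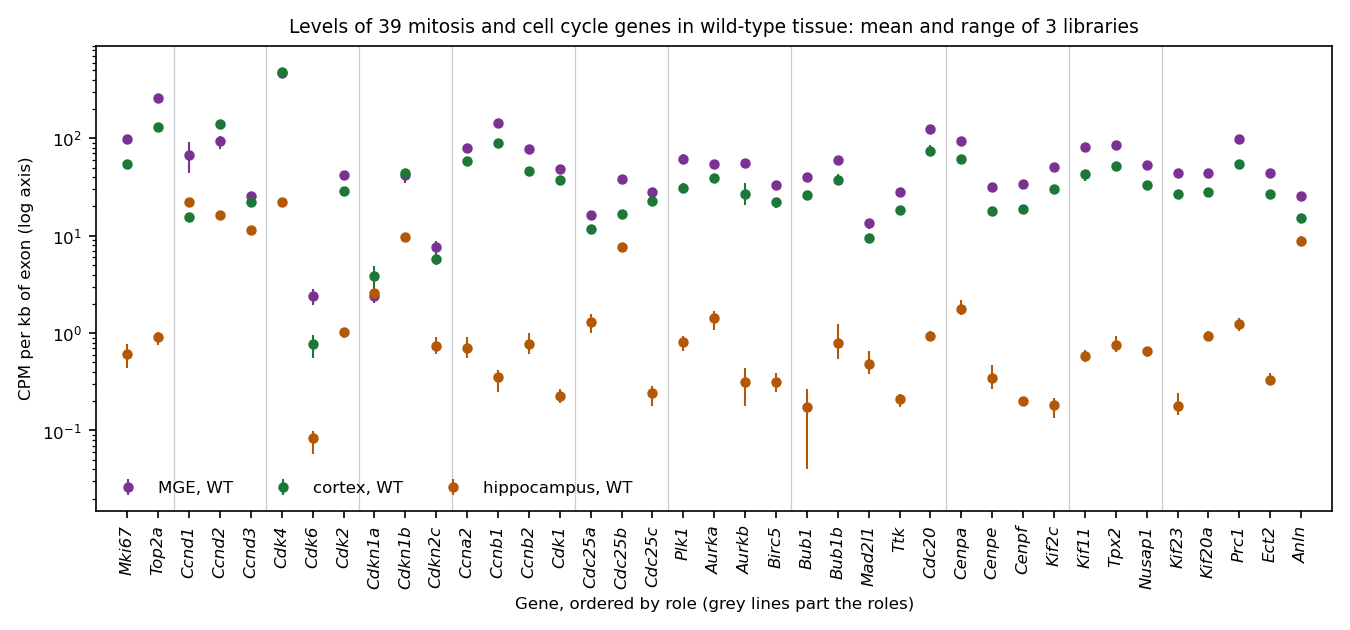
Level of each member in WT tissue, as CPM per kb of exon on a log axis, with genes ordered by role. Points are means of 3 libraries and bars run from the lowest to the highest library. Most members lie near or under 1 CPM per kb in hippocampus, while the D cyclins, Cdk4, Cdkn1b, Anln and Cdc25b lie at 7.73 or above.

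Of the 39 members, 33 were higher and 2 lower in WT MGE than in WT cortex at an adjusted p under 0.05 (edgeR quasi-likelihood test with Benjamini-Hochberg adjustment over 15688 genes). Over all genes 24.6% were called higher and 25.7% lower, and the median log2 fold change was 0.68 for the members against -0.01 for all genes. All 21 spindle genes were higher in MGE, by 0.46 (Aurka, a centrosomal kinase) to 1.05 (Aurkb, the kinase of the chromosomal passenger complex) on the log2 scale. The D cyclins did not share a direction. CPM values set side by side between tissues are scaled over all 18 libraries together. The 4 members that did not pass were Cdk4 (-0.03, SE 0.07, adjusted p = 0.715), Cdkn1b (-0.06, SE 0.10, adjusted p = 0.664), Ccnd3 (0.21, adjusted p = 0.0987) and Cdkn2c (0.41, adjusted p = 0.0894).

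Ccnd1 (mm10 chr7:144929931-144939925, minus strand) stood at 343, 242 and 165 CPM in the 3 WT MGE libraries and at 61.5, 52.7 and 62.7 CPM in the 3 WT cortex libraries. Every MGE library was above every cortex library, though MGE WT 1 held over 2 times the level of MGE WT 3. The fold change was the largest among the members, with a log2 value of 2.08 (SE 0.23, adjusted p = 7.22e-05). Ccnd2 (mm10 chr6:127125162-127152193, minus strand) went the other way, with 524, 714 and 665 CPM in WT MGE and 949, 1025 and 833 CPM in WT cortex. Its groups did not overlap either, and its log2 fold change was -0.56 (SE 0.12, adjusted p = 0.00230). By group means per kb, Ccnd2 exceeded Ccnd1 in both tissues, at 139 against 15.8 CPM per kb in cortex and 94.5 against 66.9 in MGE. In MGE the ranges of both genes overlapped, and in MGE WT 1 Ccnd1 exceeded Ccnd2 per kb.

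Cdk6 and Cdc25b followed Ccnd1 by size, and Cdkn1a was the other member called lower in MGE. Cdk6 was at 27.7, 32.5 and 22.3 CPM in WT MGE and 9.21, 6.35 and 11.02 CPM in WT cortex, with no overlap (log2 1.63, SE 0.22, adjusted p = 0.000107). Cdc25b, a phosphatase that activates Cdk1, was at 115, 127 and 121 against 51.5, 57.0 and 47.5 CPM, also without overlap (log2 1.22, SE 0.08, adjusted p = 2.46e-07). Cdkn1a, the inhibitor p21, was lower in MGE, at 5.55, 6.98 and 6.86 against 13.3, 10.5 and 7.57 CPM (log2 -0.70, SE 0.21, adjusted p = 0.0140). Cortex WT 1 held its highest value, and without that library its adjusted p was 0.0630 at a log2 fold change of -0.50. Cdc25c (log2 0.28, adjusted p = 0.0333) had the smallest called increase and did not pass without MGE WT 1 or WT 3, or without cortex WT 1 or WT 2, at adjusted p = 0.0815, 0.130, 0.135 and 0.0732. Ccnd3 and Cdkn2c passed when single libraries were left out, Ccnd3 without MGE WT 3 or cortex WT 1 (0.0463 and 0.0491), and Cdkn2c without MGE WT 1 or cortex WT 2 (0.0159 and 0.0404).

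**Figure D2:**
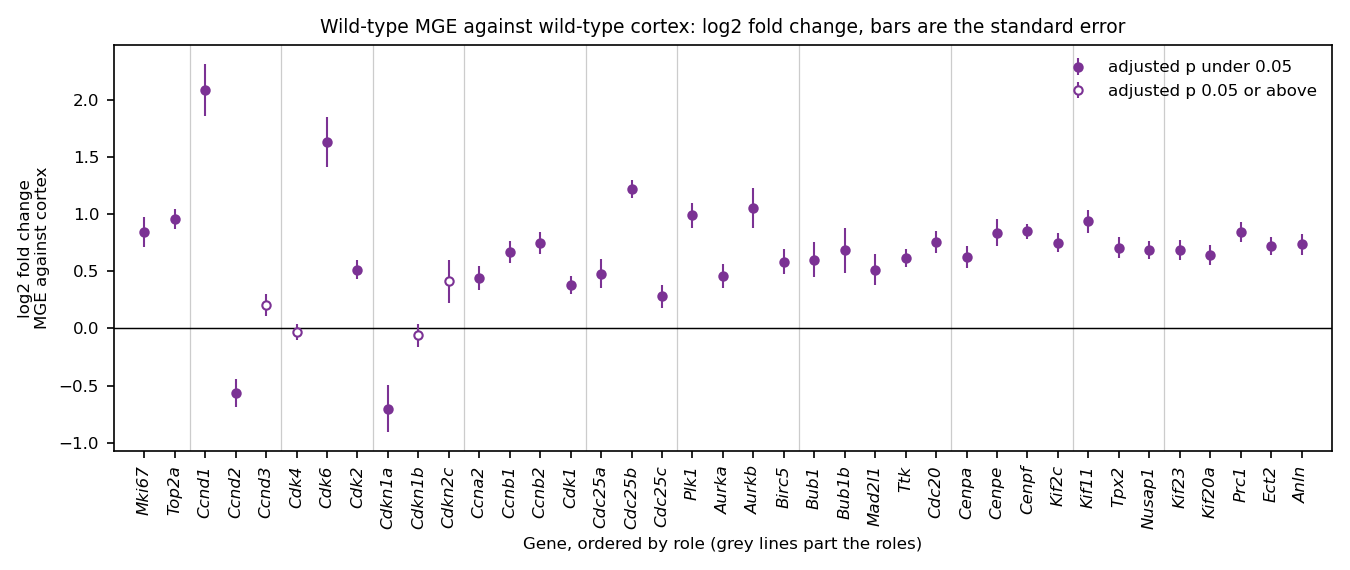
Log2 fold change of each member between WT MGE and WT cortex (above 0: higher in MGE), with genes ordered by role. Bars are the SE, filled points have an adjusted p under 0.05 and open points do not. The spindle genes lie between 0.46 and 1.05, while the D cyclins and inhibitors spread from -0.70 (Cdkn1a) to 2.08 (Ccnd1).

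Between WT hippocampus and WT cortex, 38 members were lower and 1 was higher at an adjusted p under 0.05, where 40.7% of 15688 genes were called lower and 40.2% higher. The median log2 fold change was -5.61 for the members and -0.01 for all genes. In 29 members the log2 fold change was under -4, in 6 it was between -4 and -1 and in 4 above -1. Against WT MGE, 38 members were lower in hippocampus (40.1% of all genes were called lower), with a median of -6.30, and Cdkn1a did not pass (log2 0.17, SE 0.21, adjusted p = 0.468). The hippocampus comparisons share the WT hippocampus libraries.

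The deepest decreases were in genes of mitosis itself. Ccnb1 (mm10 chr13:100778650-100786570, minus strand), the cyclin that takes cells into mitosis, fell from 211, 234 and 231 CPM in WT cortex to 0.621, 1.05 and 0.983 CPM in WT hippocampus (log2 -7.94, SE 0.15, adjusted p = 1.27e-12). Its partner kinase Cdk1 (mm10 chr10:69335146-69352938, minus strand) fell from 166, 161 and 171 to 0.863, 0.986 and 1.21 CPM (log2 -7.30, SE 0.12, adjusted p = 9.52e-13). Both genes were low in all 3 hippocampus libraries, far from any cortex library. Kif2c, a microtubule depolymerase of the kinetochore, and Kif23, a motor of the spindle midzone, had similar decreases, with log2 values of -7.32 and -7.21 (adjusted p = 1.16e-12 and 1.27e-12). Mki67, the Ki-67 antigen of cycling cells, had 535, 556 and 549 CPM in the cortex libraries, but 4.42, 6.31 and 7.77 CPM in those of hippocampus (log2 -6.43, adjusted p = 2.39e-11). No member had a count of 0 in any library.

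The smallest decreases in hippocampus were in Cdkn1a, Anln, Ccnd3 and Cdc25b. Cdkn1a was at 6.07, 7.20 and 7.90 CPM, which overlapped its range in cortex (log2 -0.53, SE 0.21, adjusted p = 0.0303), a call lost without cortex WT 1 or WT 2 or hippocampus WT 1 or WT 2 (adjusted p = 0.124, 0.0553, 0.0894 and 0.0544). Anln, the actin-binding protein anillin of the cleavage furrow, was at 45.5, 41.6 and 36.1 CPM against 63.1, 71.4 and 76.1 CPM in cortex (log2 -0.74, SE 0.09, adjusted p = 1.24e-05). It stood well above the other genes of midzone and cytokinesis in hippocampus: Kif23, Kif20a, Prc1 and Ect2 ranged from 0.179 to 1.24 CPM per kb there, against 8.92 for Anln. Ccnd3 and Cdc25b fell by 0.91 and 1.07 on the log2 scale (adjusted p = 3.30e-06 and 8.29e-08). Ccnd1 was the 1 member called higher in hippocampus than in cortex, at 75.0, 87.0 and 89.7 CPM (log2 0.54, SE 0.22, adjusted p = 0.0467). This call was lost when any 1 of the 6 libraries was left out, at adjusted p from 0.0660 to 0.134.

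Promoters of the members were read for known letters, whichever way a member moved between tissues. RefSeq promoters of GRCm38.p6, the patched form of mm10 (250 bases before the RefSeq start to 50 after it), were found for 32 of the 39 members. Aurkb, Kif20a, Ccnd1, Ccna2, Tpx2, Ccnd2 and Cdc25c had no entry. The letters searched on both strands were TTTGAA for the CHR, CCAAT for the CCAAT box, and TTTCCCGC, TTTGGCGC, TTTGCCGC or TTTCGCGC for E2F, with each motif searched on its own so that matches could share end bases. A gene with more than 1 listed promoter (5 members) was counted once, if any of them held the letters, and shares of all genes were counted the same way over 27025 genes. TTTGAA occurred in 17 of the 32 members against 20.2% of all genes, and CCAAT in 24 of the 32 against 41.1%. Both occurred in the same promoter in 15 of the 32 against 7.97%, and an E2F motif in 3 (Cdk1, Cdk2 and Cdc25a) against 2.60%. Counted by promoter, 19 of the members' 37 held TTTGAA against 17.9% of all 32851, and 26 held CCAAT against 37.4%. Of the 18 spindle genes with a promoter, 13 held TTTGAA, as did 1 (Ccnb2) of the 6 cyclins and inhibitors. A match is a run of letters, not a site shown to be bound. Other forms of the motifs were not searched, so a member without a match is not shown to lack the element.

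The 150 bases before the start are shown for 4 mitotic genes that fell by more than 5 on the log2 scale in hippocampus. They are also shown for Cdkn1b and Cdk4, which did not pass the test between the embryonic tissues. Both Cdkn1b and Cdk4 were also called lower in WT hippocampus than in WT cortex. Each stretch runs 5′ to 3′ on the strand of its gene, and capitals mark the motifs above. ATTGG is the CCAAT box on the other strand, and TTCAAA is the CHR on the other strand.
Cdk1 (GRCm38.p6 chr10:69352913-69353062, minus strand): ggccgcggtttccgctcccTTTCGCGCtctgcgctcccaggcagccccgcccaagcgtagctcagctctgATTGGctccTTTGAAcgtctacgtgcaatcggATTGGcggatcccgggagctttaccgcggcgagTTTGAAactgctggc
Ccnb1 (GRCm38.p6 chr13:100786487-100786636, minus strand): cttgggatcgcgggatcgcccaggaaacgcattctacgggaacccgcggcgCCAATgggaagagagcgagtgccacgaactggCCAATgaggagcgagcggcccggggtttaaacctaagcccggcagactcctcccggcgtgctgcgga
Ccnb2 (GRCm38.p6 chr9:70421555-70421704, minus strand): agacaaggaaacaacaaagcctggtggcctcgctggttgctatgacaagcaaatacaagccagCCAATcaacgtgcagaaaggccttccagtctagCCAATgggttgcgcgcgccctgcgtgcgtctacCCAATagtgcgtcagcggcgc
Top2a (GRCm38.p6 chr11:99024190-99024339, minus strand): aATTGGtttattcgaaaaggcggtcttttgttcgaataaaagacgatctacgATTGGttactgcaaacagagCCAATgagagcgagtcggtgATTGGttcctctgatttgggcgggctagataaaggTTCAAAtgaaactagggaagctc
Cdkn1b (GRCm38.p6 chr6:134920251-134920400, plus strand): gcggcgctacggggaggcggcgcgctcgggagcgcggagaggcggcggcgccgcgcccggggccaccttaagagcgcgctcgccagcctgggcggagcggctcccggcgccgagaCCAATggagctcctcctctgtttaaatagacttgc
Cdk4 (GRCm38.p6 chr10:127063385-127063534, plus strand): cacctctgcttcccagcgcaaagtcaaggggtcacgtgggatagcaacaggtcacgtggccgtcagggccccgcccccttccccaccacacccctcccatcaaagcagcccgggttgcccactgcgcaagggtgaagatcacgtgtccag
Cdk1 showed 2 TTTGAA, 2 ATTGG and the E2F letters in this stretch, and Ccnb1 and Ccnb2 showed 2 and 3 CCAAT. The TTTGAA matches of Ccnb2 lay outside it. Top2a showed 1 TTCAAA and 4 CCAAT or ATTGG, Cdkn1b showed 1 CCAAT and Cdk4 none of the motifs. The 17 members with TTTGAA had a median log2 fold change of -6.27 between WT hippocampus and WT cortex (-7.32 to -0.74) and the 15 without it of -4.26 (-7.94 to -0.53). Both ranges hold members at either end: Anln, with 2 TTTGAA, had the smallest decrease of the 17, and Ccnb1, with none, the largest of the 15. Between WT MGE and WT cortex the medians were 0.75 and 0.51, and between HET and WT in cortex 0.31 and 0.29 (0.50 and 0.40 without HET 3). These medians describe the members and were not tested.

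In the E13.5 cortex, 36 of the 39 members had a log2 fold change above 0 in HET against WT and 3 (Cdk4, Cdk6 and Cdkn1b) below 0, with a median of 0.31. Over all 14757 genes tested 52.3% were above 0 and the median was 0.01. No member passed the test: edgeR called 0 members and 0% of all genes, DESeq2 and limma-voom also called 0 members, and the lowest adjusted p of a member was 0.578. At an unadjusted p under 0.05 there were 7 members of 39, against 7.89% of all genes.

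The 3 HET libraries of cortex did not move together. In 36 members HET 1 and HET 2 were both above all 3 WT libraries and above HET 3, which held in 29.2% of all genes tested. In the same 39 members HET 3 was below every WT library in 15, within the WT range in 23 and above it in 1 (Cdk4). The members took 0.938 and 0.953% of the counts in HET 1 and HET 2, 0.664% in HET 3 and 0.694 to 0.734% in the WT libraries.

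**Figure D3:**
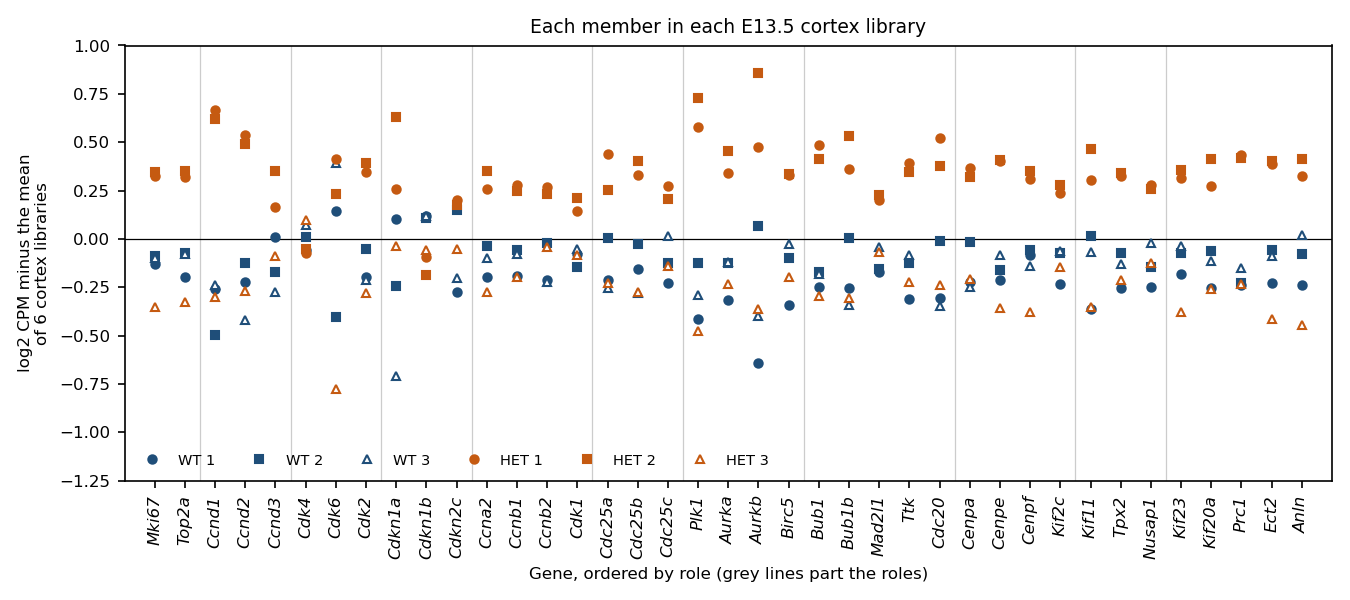
Each member in each E13.5 cortex library, as log2 CPM (prior count 2) minus the mean of the 6 cortex libraries, with genes ordered by role. Filled orange symbols (HET 1 and HET 2) lie above the WT symbols in 36 members, and open orange triangles (HET 3) lie within or under the WT symbols in 38.

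In this and the following cortex paragraphs, adjusted p-values without HET 3 are a description and not a test. HET 3 was singled out by the values of these same members. All 3 D cyclins were highest in HET 1 and HET 2. Ccnd1 was at 63.8, 54.0 and 64.7 CPM in WT and 121, 117 and 62.0 CPM in HET 1, 2 and 3. HET 1 and HET 2 were near 2 times the WT level, and HET 3 lay within the WT range (log2 0.72, SE 0.24, adjusted p = 0.578; without HET 3 0.97, adjusted p = 0.000298). Ccnd2 had 1668, 1615 and 954 CPM in the HET libraries, with the same order against 985, 1052 and 860.0 CPM in WT (log2 0.55, SE 0.21, adjusted p = 0.578; without HET 3 0.77, adjusted p = 0.000528). Ccnd3 had 69.3, 78.9 and 58.1 CPM in HET against 62.2, 54.9 and 51.1 CPM in WT, so that HET 3 was again within the WT range (log2 0.29, SE 0.13, adjusted p = 0.578; without HET 3 0.40, adjusted p = 0.0118). Their partner kinases did not share this: Cdk4 was at 957, 971 and 1079 CPM in HET and 969, 1015 and 1058 CPM in WT (log2 -0.02, SE 0.10; without HET 3 -0.07, adjusted p = 0.407), and Cdk6 at 11.6, 10.2 and 5.03 against 9.56, 6.52 and 11.4 CPM (log2 -0.04, SE 0.33; without HET 3 0.25, adjusted p = 0.435). Both kinases had overlapping groups. Cdk2, the kinase of S phase, was at 102, 105 and 66.3 CPM in HET and 70.1, 77.5 and 69.4 CPM in WT (log2 0.34, SE 0.17; without HET 3 0.52, adjusted p = 0.00106).

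The CDK inhibitors split. Cdkn1b (mm10 chr6:134920401-134925513, plus strand), which encodes p27, a brake on G1 cells that is high in cells leaving the cycle, was at 208, 207 and 208 CPM in WT and 179, 169 and 184 CPM in HET. All 3 HET libraries were below all 3 WT libraries, which made it the only one of the 39 members without overlap in cortex, against 11.4% of all genes (log2 -0.23, SE 0.08, adjusted p = 0.578; without HET 3 -0.25, adjusted p = 0.0100). Cdkn1a was at 13.8, 10.8 and 7.81 CPM in WT and 15.3, 19.9 and 12.5 CPM in HET, where HET 3 lay within the WT range (log2 0.56, SE 0.25; without HET 3 0.70, adjusted p = 0.0577). Cdkn2c, the inhibitor p18 of Cdk4 and Cdk6, was at 14.0, 18.8 and 14.8 against 19.6, 19.2 and 16.4 CPM, and HET 1 and HET 2 exceeded WT 2 by under 1 CPM (log2 0.21, SE 0.16; without HET 3 0.29, adjusted p = 0.163).

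Among the A and B cyclins with Cdk1, Ccnb2 had the largest log2 fold change at 0.31 (SE 0.11, adjusted p = 0.578; without HET 3 0.40, adjusted p = 0.00449). It was at 69.3, 79.1 and 68.9 CPM in WT and 96.7, 94.4 and 78.1 CPM in HET, with HET 3 within the WT range. Ccnb1 was at 304, 298 and 219 CPM in HET against 219, 241 and 238 CPM in WT, and Cdk1 at 202, 211 and 173 against 173, 165 and 176 CPM. HET 1 and HET 2 were above WT in both, and HET 3 was below every WT library in Ccnb1, by under 1 CPM, and within the WT range in Cdk1 (log2 0.23 and 0.19, adjusted p = 0.578 for both; without HET 3 0.37 and 0.27). The 3 Cdc25 phosphatases had log2 fold changes of 0.23 to 0.33, and of 0.35 to 0.52 without HET 3. Mki67 was at 555, 571 and 566 CPM in WT and 761, 772 and 476 CPM in HET, and Top2a at 671, 730.0 and 729 against 961, 981 and 613 CPM. In both marks of dividing cells HET 3 was below every WT library (log2 0.25 and 0.26, adjusted p = 0.601 and 0.587; without HET 3 0.44 and 0.45).

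Of the spindle genes, all 21 had a log2 fold change above 0 in cortex, from 0.23 to 0.70 with a median of 0.33, and from 0.34 (Mad2l1) to 0.98 (Aurkb) without HET 3. Aurkb had the largest, at 42.3, 69.3 and 50.3 CPM in WT and 92.2, 119.9 and 51.5 CPM in HET (log2 0.70, SE 0.30, adjusted p = 0.578; without HET 3 0.98, adjusted p = 0.0474). Plk1, the polo kinase that acts from mitotic entry to cytokinesis, followed with 63.6, 77.8 and 69.3 CPM in WT and 127, 141 and 61.0 CPM in HET (log2 0.64, SE 0.28, adjusted p = 0.578; without HET 3 0.93, adjusted p = 0.000362). In Aurkb HET 3 lay within the WT range, and in Plk1 it lay below it. Bub1b, a component of the spindle checkpoint, was at 135, 161 and 127 CPM in WT and 207, 233 and 130.1 CPM in HET (log2 0.43, SE 0.21; without HET 3 0.64, adjusted p = 0.00380). Cenpe, a kinetochore motor that aligns chromosomes, was at 139, 144 and 152 against 213, 214 and 126 CPM (log2 0.34, SE 0.19; without HET 3 0.56, adjusted p = 0.000528). Kif11, the motor that pushes spindle poles apart, was at 181, 235 and 222 against 287, 321 and 182 CPM (log2 0.31, SE 0.21; without HET 3 0.52, adjusted p = 0.0117). Prc1, which bundles microtubules of the midzone, was at 171, 172 and 181 against 271, 269 and 171 CPM (log2 0.44, SE 0.17, adjusted p = 0.578; without HET 3 0.63, adjusted p = 0.000298). In these 4 genes HET 1 and HET 2 exceeded every WT library, and HET 3 lay below the WT range in Cenpe and inside it in the other 3.

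Averaged over the 21 spindle genes, the deviation from the mean of the 6 cortex libraries on the log2 scale was -0.27, -0.08 and -0.14 in WT 1, 2 and 3 and 0.36, 0.41 and -0.28 in HET 1, 2 and 3. Over the 9 cyclins and inhibitors it was -0.12, -0.10 and -0.24 in WT and 0.28, 0.32 and -0.15 in HET. Both sets were thus highest in HET 1 and HET 2, and HET 3 lay below 2 of the 3 WT libraries in cyclins and inhibitors and below all 3 in spindle genes. Within the set of 9, the D cyclins had 0.46, 0.49 and -0.22 in HET, and the inhibitors 0.12, 0.21 and -0.05. All 21 spindle genes and 8 of the 9 cyclins and inhibitors had HET 1 and HET 2 above the other 4 libraries.

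**Figure D4:**
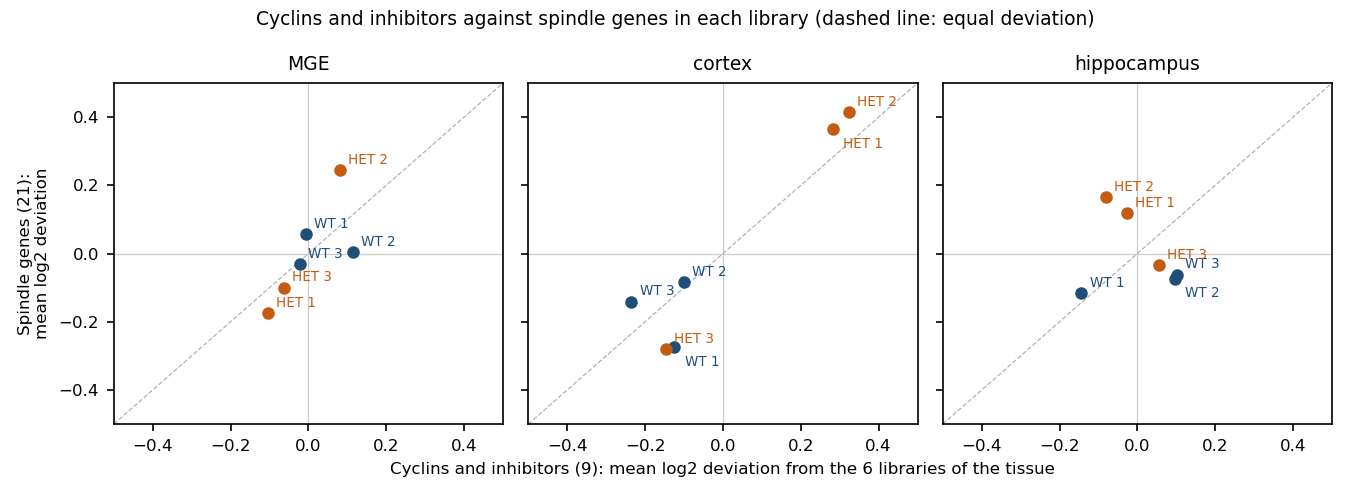
Mean log2 deviation of 9 cyclins and inhibitors (x axis) against that of 21 spindle genes (y axis) in each library, from the mean of the 6 libraries of its tissue (log2 CPM, prior count 2). In cortex, HET 1 and HET 2 lie at 0.28 and 0.32 on x and 0.36 and 0.41 on y, and HET 3 lies beside WT 1. In MGE and hippocampus all libraries lie within 0.25 of 0.

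Without HET 3, 34 members were called higher and 1 lower (Cdkn1b) in the 2 remaining HET libraries against 3 WT, and Cdk4, Cdk6, Cdkn1a and Cdkn2c did not pass. In the same fit 17.7% of 14961 genes were called higher and 30.7% in either direction, so many genes outside the cell cycle were called there too. As HET 3 was singled out by the members' own values, the members' calls without it are a description and not a test. The members' median log2 fold change was then 0.49, and the called increases ran from 0.27 (Cdk1) to 0.98 (Aurkb). With HET 3 alone against the 3 WT libraries, the median was -0.08, 31 members were below 0 and 8 above, and none passed (lowest adjusted p = 0.618). That fit takes the spread from the WT libraries.

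Summed markers of other cell types differed between the same libraries. The 12 neuron markers (Tubb3, Dcx, Map2 and others) all had a log2 fold change below 0 in cortex with a median of -0.25 and no call (-0.53 and 8 called lower without HET 3), and their summed level was lowest in HET 1 (2763 CPM) and HET 2 (2686 CPM), against 4080 CPM for HET 3 and a WT range of 3649 to 4199 CPM. The 10 radial glia markers, of the progenitors that divide, summed to 3656, 3391 and 3198 CPM for HET 1, 2 and 3, beside 2931 to 3453 CPM over the WT libraries, and without HET 3 6 of them were called higher and 2 lower. Markers of red blood cells (8 genes) were highest in HET 1 (973 CPM summed) and HET 2 (1217 CPM), against 393 CPM for HET 3 and a WT range of 311 to 465 CPM, and 4 of the 6 tested were called higher without HET 3. The 8 markers of the ventral interneuron lineage summed to 18.1 CPM for HET 1, 16.6 CPM for HET 2 and 60.8 CPM for HET 3, beside a WT range of 40.6 to 67.5 CPM, and 5 of the 7 tested were called lower without HET 3. The 8 markers of meninges and mesenchyme were all above 0 (median 0.49, 0 called; without HET 3 7 above 0, median 0.46, 0 called), and summed to 593 to 848 CPM over the HET libraries, beside 402 to 662 CPM over the WT libraries. Choroid plexus markers ranged from 5.67 to 1657 CPM over the 6 libraries, with the extremes both in WT. All 7 were below 0, with a median of -1.61 (-2.59 without HET 3) and 0 called in either fit. Of the 8 microglia markers 7 were below 0 and 0 called (8 below 0 and 1 called lower without HET 3). The 6 markers of intermediate progenitors summed to 1226, 1168 and 1048 CPM for HET 1, 2 and 3, beside 1102 to 1322 CPM over the WT libraries. Without HET 3, 2 of these 6 were called higher. The part of these cell types in the members' levels was not tested.

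The other genes of the pathway, 122 genes listed by function, were also mostly above 0 in cortex. Of 120 tested, 107 were above 0 in HET against WT (52.3% of all genes) and 13 below, with a median of 0.30. None was called, and 27 had an unadjusted p under 0.05 (7.89% of all genes). Without HET 3, in an alternative added after seeing the data, 90 were called higher and 1 lower with a median of 0.48, where 17.7% of all genes were called higher. HET 3 was singled out by members of the same pathway, so these calls are a description and not an independent test. Ccne1, the cyclin that starts S phase with Cdk2, had 0.78 (SE 0.26; without HET 3 1.03), Mybl2, a transcription factor of mitotic genes, 0.87 (SE 0.31; without HET 3 1.17), and Foxm1, which acts with it, 0.65 (SE 0.28; without HET 3 0.94). Cks2, a CDK subunit, had 0.24 (SE 0.08; without HET 3 0.25), Cenpk of the inner kinetochore 0.37 (SE 0.11; without HET 3 0.42), Ube2c, the ubiquitin enzyme of mitotic exit, 0.66 (SE 0.23; without HET 3 0.90) and Smc4 of condensin 0.32 (SE 0.17; without HET 3 0.50), all at adjusted p = 0.578. The other genes named by lowest p from each list, E2f6, Ccnf, Zwilch, Cenph, Kifc5b, Depdc1a, Ncapg2 and Ncapd3, had 0.33 to 0.67, and 0.49 to 0.89 without HET 3. Between WT MGE and WT cortex, 98 of 121 were called higher (24.6% of all genes) and 2 lower (25.7%), with a median of 0.58. Between WT hippocampus and WT cortex, 110 were called lower (40.7% of all genes) and 5 higher (40.2%).

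In the E13.5 MGE the members showed no common direction. edgeR called 0 of 39 members (0.0479% of 14624 genes were called), as did DESeq2 and limma-voom, and no member had an unadjusted p under 0.05, against 4.51% of all genes. Log2 fold changes were above 0 in 21 members and below 0 in 18 (52.1% of all genes were above 0), with a median of 0.01 for the members and 0.01 for all genes. Cdkn2c had the lowest p, at 15.5, 24.2 and 22.8 CPM in WT and 15.3, 18.5 and 14.2 CPM in HET (log2 -0.38, SE 0.18, adjusted p = 0.980). Its groups overlapped, with WT 1 near the HET libraries. Cdc25a, the phosphatase that opens S phase, was the 1 member without overlap, by under 1 CPM, against 9.85% of all genes, at 80.0, 81.3 and 71.8 CPM in WT and 81.3, 90.6 and 92.0 CPM in HET (log2 0.18, SE 0.09, adjusted p = 0.980).

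Ccnd1 was spread widely among the WT libraries of MGE (349.9, 245 and 168 CPM) and less among the HET libraries (293, 349 and 330.3 CPM), and the groups overlapped (log2 0.35, SE 0.25). Ccnd2 was at 534, 720.4 and 678 CPM in WT and 553, 568 and 605 CPM in HET (log2 -0.16, SE 0.12). Cdkn1b was at 162, 219 and 209 CPM in WT and 163, 203 and 163 CPM in HET (log2 -0.16, SE 0.13). HET 2 stood apart in the spindle genes: their mean deviation was 0.24 in HET 2, where all 21 were above the mean of the 6 MGE libraries, and -0.17 and -0.10 in HET 1 and HET 3, against -0.03 to 0.06 in WT. The 12 neuron markers had their lowest mean deviation in the same library, -0.40 in HET 2 against -0.13 to 0.29 in the other 5, and summed to 3735 CPM there against 3601 to 4728 CPM in the other 5. The 10 radial glia markers summed to 4050.4 CPM in HET 2, the highest of the 6, against 3029.9 to 3844 CPM in the other 5, with a mean deviation of -0.03. The part of these cell types in the spindle values was not tested. HET 2 of MGE was singled out by the members' own values, so values without it are a description and not a test. Without HET 2 the members' median log2 fold change was -0.15, and still 0 were called. For example, Top2a was at 1138, 1468 and 1129 CPM in HET 1, 2 and 3 against 1352, 1434 and 1303 CPM in WT, and Ccnb2 at 95.7, 123 and 103 against 118, 123 and 118 CPM. Both genes were lower than every WT library in HET 1 and HET 3 and at or above the top of the WT range in HET 2.

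In the P45 hippocampus, 38 members passed the filter on low counts. Cdc25c, a phosphatase of mitotic entry, did not, with 16, 16 and 11 counts in WT and 7, 3 and 5 counts in HET. Of the 38, 1 was called lower (0.811% of 15283 genes were called lower, and 1.07% in either direction), 24 were above 0 and 14 below (51.4% of all genes were above 0), and the median was 0.06. At an unadjusted p under 0.05 there were 3 (Ccnd1, Ccnd3 and Kif23), against 15.6% of all genes. Groups did not overlap in 4 of the 38, against 20.8% of all genes: Ccnd1 and Ccnd3 were lower in HET, and Ttk and Kif23 higher.

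Ccnd1 was the member called, at 71.8, 82.9 and 84.0 CPM in WT and 60.6, 64.7 and 59.7 CPM in HET. All 3 HET libraries were below all 3 WT libraries (log2 -0.37, SE 0.07, adjusted p = 0.0307). The call was lost without WT 2, WT 3, HET 1 or HET 3, at adjusted p = 0.162, 0.0808, 0.0782 and 0.216. Ccnd3 was at 28.0, 28.0 and 24.2 CPM in WT and 21.3, 22.7 and 19.98 CPM in HET, also without overlap, and did not pass (log2 -0.33, SE 0.09, adjusted p = 0.0964), while DESeq2 gave it an adjusted p of 0.0486. Ccnd2 was at 112, 106 and 92.8 CPM in WT and 94.0, 93.2 and 103 CPM in HET, with overlap (log2 -0.10, SE 0.07). Beside the D cyclins, the 7 endothelium markers (Cldn5, Pecam1, Cdh5, Flt1, Kdr, Tie1 and Esam) were all below 0 in hippocampus, 2 of them called lower, and summed to 123 to 134 CPM in WT and 81.3 to 93.1 CPM in HET. The part of endothelium in the D cyclin values was not tested.

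For the inhibitors the groups overlapped in hippocampus. Cdkn1b was at 40.0, 42.4 and 44.1 CPM in WT and 39.5, 42.1 and 43.1 CPM in HET (log2 -0.02, SE 0.07), and Cdkn1a at 5.82, 6.86 and 7.40 against 6.55, 6.22 and 7.63 CPM (log2 0.02, SE 0.14). Kif23 had the largest log2 fold change, 0.94 (SE 0.34, adjusted p = 0.217), from low levels of 0.793, 0.470 and 0.475 CPM in WT and 1.097, 0.987 and 1.26 CPM in HET. The HET libraries were above the WT libraries in it, at a depth of about 1 CPM. Of the 21 spindle genes 16 were above 0 and 5 below, and 0 were called. Markers of adult neurogenesis (8 genes, Dcx and Prox1 among them) summed to 154 to 204 CPM in WT and 156 to 160.3 CPM in HET.

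**Figure D5:**
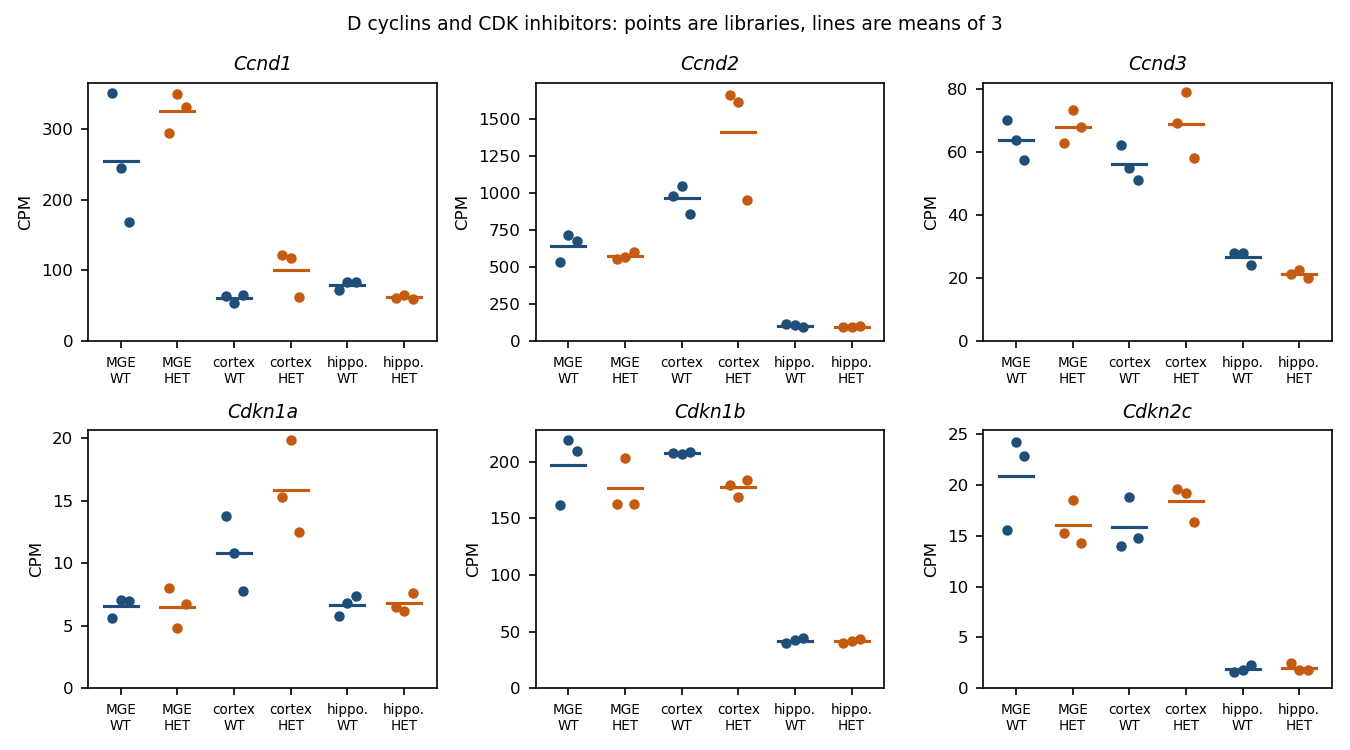
CPM of the 3 D cyclins and the 3 CDK inhibitors in all 18 libraries (points; blue WT, orange HET) with the mean of each group of 3 (lines), each panel on its own linear axis from 0. In cortex HET 1 and HET 2 lie above WT for the D cyclins and HET 3 does not, while all 3 HET libraries lie below WT for Cdkn1b. In hippocampus the HET points lie below the WT points for Ccnd1 and Ccnd3.

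The genotype effect itself was compared between tissues in 1 fit of 18 libraries. No member passed: edgeR called 0 of 39 for cortex against MGE (0% of 16125 genes), for cortex against hippocampus (0.0124%) and for MGE against hippocampus (0.0062%), and DESeq2 and limma-voom also called 0 members in each. At an unadjusted p under 0.05 there were 5, 7 and 4 of the 39 members, against 7.01, 12.8 and 7.36% of all genes. These comparisons share libraries. The difference of Ccnd1 between cortex and hippocampus was 1.08 on the log2 scale (SE 0.33, adjusted p = 0.319), with 0.72 in cortex and -0.37 in hippocampus. Without cortex HET 3, 10 of the 39 members were called for cortex against MGE (6.40% of all genes) and 8 for cortex against hippocampus (17.1% of all genes). As HET 3 was singled out by the members' own values, these calls are a description and not a test.

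The sources used here give no strand setting for the counts. Exons of 13 members overlap a gene on the other strand in GENCODE M21, most in Kif20a (31.8% of its exon length, with Cdc23), Cdk4 (31.2%, with Tspan31), Ccnd1 (21.9%, with LTO1), Prc1 (21.8%, with Rccd1) and Ccnd3 (14.8%, with Bysl), so counts of the overlapping stretch cannot be assigned with certainty. Ccnd3, Ccnb1 and Ccnb2 have processed pseudogenes named after them, which could share reads and have no line in the count table. Pseudogenes under other names were not searched.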

How the data were processed

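The deposited table holds raw whole-number counts per gene, as the authors made it, for 18 libraries. Per the submitters' processing notes, the tools included FastQC, Trimmomatic, TopHat2 2.1.1, SAMtools and DESeq2, with the mm10 genome. Which program counted the reads, on which annotation and with what strand setting, is not given in the sources used here.

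Groups came from the sample titles. Counts were tested with edgeR 4.0.16 (R 4.3.3), robust quasi-likelihood, TMM scaling and a filter on low counts (filterByExpr, minimum count 10, minimum total 15), in 1 fit per tissue for genotype, 1 fit of 9 WT libraries for tissue and 1 fit of 18 libraries for differences between tissues. P-values were adjusted by Benjamini-Hochberg over all genes tested, with calls under 0.05. The SE is the log2 fold change divided by the square root of F. Alternatives were DESeq2 1.42.0, limma-voom 3.58.1, other scalings and filters, a replicate block and leaving out libraries. Exon lengths and positions came from GENCODE M21. Figures were drawn with matplotlib 3.10.9. Statistics were checked on counts simulated with the spread of these libraries. Genes were simulated independently of each other, and changes were put only into genes with a mean above 1 CPM. Members under that level in hippocampus, such as Bub1 (mean 0.564 CPM in WT and 0.545 CPM in HET), are not described by these shares. The cortex genotype fit recovered 16% of 1.5-fold and 59% of 2-fold changes. The MGE fit recovered 40% and 83%, and the hippocampus fit 79% and 89%. Of the simulated calls, 7.41% in cortex, 9.56% in MGE and 5.62% in hippocampus were unchanged genes. A member that was not called is therefore not shown to be unchanged.

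The members and lists were chosen with earlier results of these data known. Genes named are 16 fixed representatives; in each genotype comparison, the 4 members of lowest p and, in cortex, the 3 of smallest change; every member called for genotype or for a difference between tissues; in WT tissue comparisons, the 4 highest and 4 lowest among called members and those not called; and up to 3 genes per pathway list by lowest p in cortex. Others were named after their values were seen, such as Ccnd3 and Anln among hippocampus levels. Replicate pairs of a group differed by more than counting noise, so none was merged.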

Additional observations from a re-analysis of the deposited data

How the results depend on the processing

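In cortex, leaving out 1 library gave 0 to 35 called members, with 35 only without HET 3, and medians of 0.18 to 0.49. Without HET 1 and HET 2 the median was -0.076. In MGE the median ran from -0.15 (without HET 2) to 0.088. In hippocampus DESeq2 called 2 members, the fit with a replicate block 0, and 1 fit of all 18 libraries 0 (Ccnd1 adjusted p = 1), while leaving out 1 library gave 0 to 1. The median between WT MGE and WT cortex was 0.63 with upper-quartile scaling and 0.63 to 0.70 without single libraries. Between WT hippocampus and WT cortex it was -5.71 with upper-quartile scaling, which moved the median of all genes by -0.10, and -5.71 to -5.54 without single libraries, and against WT MGE it was -6.40 to -6.32. Differences of the genotype effect between tissues gave 0 to 10 calls for cortex against MGE and 0 to 8 for cortex against hippocampus. The 10 and 8 calls came without cortex HET 3, which was singled out by the members' own values. No result reversed past the test's threshold. Replicate numbers were not used as pairs in the main fits. Correlations of same-numbered libraries ran from -0.25 to 0.17, and 3 libraries a group are too few to exclude pairing. With the replicate block Ccnd1 in hippocampus had a log2 fold change of -0.37 and an adjusted p of 0.0640 (edgeR), 37 members were called between WT MGE and WT cortex (35 without it) and 37 between WT hippocampus and WT cortex (39 without it). Depth limits the low members in hippocampus, such as Cdc25c with 3 to 16 counts a library. The values of pathway genes, marker lists and promoter groups without cortex HET 3 were added after seeing the data.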
